A study of Mus musculus with 6 samples.

Results

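The genes described here are 43 components of the Wnt signalling pathway: the 19 Wnt ligands, the 10 Frizzled receptors, the co-receptors Lrp5 and Lrp6, 8 secreted antagonists and 4 target genes. They were chosen by name and role, and all 43 were found among the 37991 genes of the count table. Read counts came from RNA-seq of mouse PGCLCs (primordial germ cell-like cells), a culture model of the nascent germ line that starts from embryonic stem cells. The 3 Ezh2 KO libraries came from cells labelled Ezh2-/-, CreERT2, whose aggregates were given 4-hydroxytamoxifen dissolved in ethanol, and the 3 Ctrl libraries came from cells labelled Ezh2f/f, CreERT2, given ethanol alone. Both groups share the C57BL/6 background, the floxed line and its tamoxifen-activated Cre. Both passed through an epiblast-like state for 2 days and then 4 days of aggregation with BMP2 (500 ng/ml), SCF, LIF and EGF, and both were sorted before RNA extraction. Before these steps the stem cells of both groups were kept in a medium that holds 3 µM CHIR99021, an inhibitor of GSK3 and so an activator of the Wnt pathway. Only the Ezh2 KO cells met 4-hydroxytamoxifen, so the drug and the deletion cannot be told apart. The comparison addresses how germ cell precursors express these genes after induced deletion of Ezh2, the main methyltransferase of polycomb repressive complex 2, which places the repressive mark H3K27me3.

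Wnt ligands are secreted lipid-modified proteins that bind a Frizzled receptor together with Lrp5 or Lrp6. In the canonical branch this binding stops the destruction of beta-catenin, which enters the nucleus and acts with TCF/LEF factors on target genes such as Axin2 and Sp5, while antagonists such as the Sfrp and Dkk proteins bind ligands or co-receptors outside the cell. In the mouse embryo Wnt3 is needed for the epiblast to respond to BMP and form germ cells, and many developmental genes of the pathway have CpG-rich promoters of the kind that polycomb complexes bind in embryonic stem cells.

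Ezh2 itself (ENSMUSG00000029687) stood at 40.8, 67.1 and 70.0 CPM (read counts scaled to a common library size by edgeR with TMM factors) in Ezh2 KO replicates 1 to 3, against 91.8, 78.1 and 95.3 CPM in Ctrl replicates 1 to 3. The groups did not overlap, but the log2 fold change of -0.58 ± 0.23 (SE) did not pass the test over all genes (edgeR quasi-likelihood, unadjusted p = 0.0361, adjusted p = 0.976). The counts cover the whole gene, so reads outside the deleted exons still count, and the loss of the deleted exons was not measured here. Such reads and reads from cells that kept the gene cannot be told apart in these counts. How complete the deletion was is therefore not known here, which limits all comparisons below. Total counts were 27072150 to 38643944 in Ezh2 KO and 27358959 to 49382146 in Ctrl, which makes 1 count worth 0.0206 to 0.0386 CPM. The 12 PGC markers were all tested and summed to 1746 to 2298 CPM in Ezh2 KO, against 2113 to 2408 CPM in Ctrl. Their log2 fold changes were positive for 3 and negative for 9, with a median of -0.29. Of the epiblast markers 4 of 5 were tested, and they summed to 83.2 to 107 CPM in Ezh2 KO, against 57.4 to 74.8 CPM in Ctrl, without overlap, with Pou3f1 at 0 in all 6 libraries. Dnmt3b held most of that sum, with means of 74.0 CPM in Ezh2 KO and 48.0 CPM in Ctrl, and the 4 tested markers had 2 positive and 2 negative log2 fold changes (Dnmt3b 0.63, Otx2 0.23, Fgf5 -0.30 and Sox4 -0.72) with a median of -0.03. The summed levels of the other lists overlapped between the groups. Endoderm markers (4 of 8 tested) summed to 1.24 to 2.22 CPM in Ezh2 KO, against 1.99 to 3.77 CPM in Ctrl, with Foxa2 and Ttr at no more than 2 counts. The tested ones had a median log2 fold change of -0.96, with 1 positive (Apoa1 0.97) and 3 negative (Sox17 -1.63, Gata4 -1.04 and Gata6 -0.88). Sox17 was lower without overlap, at 0.160, 0 and 0.296 CPM in Ezh2 KO, against 0.639, 0.426 and 0.460 CPM in Ctrl (edgeR, unadjusted p = 0.0594, adjusted p = 0.976). Fibroblast markers (4 of 8 tested) summed to 2.66 to 6.47 CPM in Ezh2 KO, against 5.13 to 9.75 CPM in Ctrl. Primitive streak and mesoderm markers (6 of 10 tested, Foxf1 at 0) summed to 6.45 to 11.4 CPM in Ezh2 KO, against 6.71 to 12.8 CPM in Ctrl. Neuroectoderm markers (6 of 8 tested, Neurog2 at 0) summed to 22.7 to 49.3 CPM in Ezh2 KO, against 27.5 to 51.5 CPM in Ctrl, most of it from Otx2 and Tubb3. Of the rarer ones Neurog1, Lhx2 and Pax6 were lower in Ezh2 KO without overlap. The other tested ones overlapped, with log2 fold changes of -0.26 for Tubb3, -0.18 for Nes and 0.23 for Otx2. Neurog1 had a log2 fold change of -2.37 ± 0.58 (SE; edgeR, unadjusted p = 0.00334, adjusted p = 0.976; DESeq2 with the replicate number as a block, adjusted p = 0.0463). Lhx2 had -2.28 ± 0.55 (SE; edgeR, unadjusted p = 0.00301, adjusted p = 0.976) and Pax6 -0.59 ± 0.38 (SE). The fold changes of Neurog1 and Lhx2 are larger in size than that of any tested Wnt member. Neurog1, Lhx2 and Sox17 passed the low-count filter described below through their Ctrl libraries, which favoured a difference in this direction. Trophoblast markers (8 of 8 tested) summed to 201 to 352 CPM in Ezh2 KO, against 132 to 436 CPM in Ctrl. Blood and endothelium markers (5 of 7 tested, Ptprc at no more than 1 count) summed to 124 to 206 CPM in Ezh2 KO, against 126 to 200.1 CPM in Ctrl. The part that any of these cell types takes in the results below was not tested, and in bulk RNA fewer cells of a type and less RNA per cell cannot be told apart.

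The members were rare transcripts: together they held 0.0133% to 0.0165% of the counts in Ezh2 KO libraries and 0.0126% to 0.0149% in Ctrl libraries. A count of at least 1 was recorded for 36, 37 and 36 members in Ezh2 KO and for 41, 38 and 39 members in Ctrl. The low-count filter of edgeR (filterByExpr, minimum count 10) left 27 members to test: 7 of 19 ligands, 8 of 10 Frizzled receptors, both co-receptors, 7 of 8 antagonists and 3 of 4 targets. At an adjusted p under 0.05, edgeR called 0 of the 27, and it called 0 of the 16420 genes tested (0%), where the smallest adjusted p was 0.976. At an unadjusted p under 0.05, 2 members (Fzd2 and Sfrp5) were lower in Ezh2 KO, or 7.41% of those tested, beside 1.25% of all tested genes. In the other direction 1 member (Wif1) was higher, or 3.70%, beside 1.55% of all tested genes. All 3 passed the filter through the group in which they are higher (Fzd2 and Sfrp5 through Ctrl, Wif1 through Ezh2 KO), which favoured such differences, so nothing is read from these shares. DESeq2 and limma-voom also called 0 members. Among the 27 tested members the unadjusted p was under 0.05 for 2 in DESeq2 and 3 in limma-voom. Over all genes it was under 0.05 for 737 in DESeq2, which fitted every gene with a count, and for 466 in limma-voom. Outside the edgeR filter, Fzd1 and Sp5 were also under it in DESeq2 (unadjusted p = 0.0104 and 0.00938). The tested members' 95% intervals had a median half-width of 1.00 on the log2 scale, against 0.71 for all tested genes, and 24 of the 27 intervals held 0.

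The log2 fold changes of Ezh2 KO over Ctrl were negative for 20 of the 27 tested members and positive for 7, with a median of -0.34. Over all 16420 tested genes 48.7% were negative and the median was 0.01. Transcripts of the tested members were richer in G and C (median 55.4%) than those of all tested genes (50.3%), and in the reported fit fold changes correlated with GC content across genes (Pearson r = -0.26, a description over genes of the same 6 libraries). Among the 3668 tested genes with a transcript GC content of at least 55%, to which 15 of the tested members belong, 69.8% of fold changes were negative and the median was -0.17. With an offset for GC content fitted in each library, the members' median was -0.23, with 18 negative and 9 positive. With that offset and the replicate number as a block it was -0.18. On the first principal component (55.5% of the variance) the extremes were Ezh2 KO replicate 2 and Ctrl replicate 1. Of the 27 tested members 11 had their lowest level in Ezh2 KO replicate 2. The share of all tested genes lowest there was not computed, so this count is not read as a trait of the members. Without Ezh2 KO replicate 2 and Ctrl replicate 1 the members' median was -0.16, with 16 negative and 11 positive. The correlation of fold change with GC content then had the opposite sign (r = 0.235). In that fit Sfrp5 was lower and Wnt7b and Sfrp1 higher at an unadjusted p under 0.05 in edgeR, while Fzd2 and Wif1 were not under it.

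**Figure D1:**
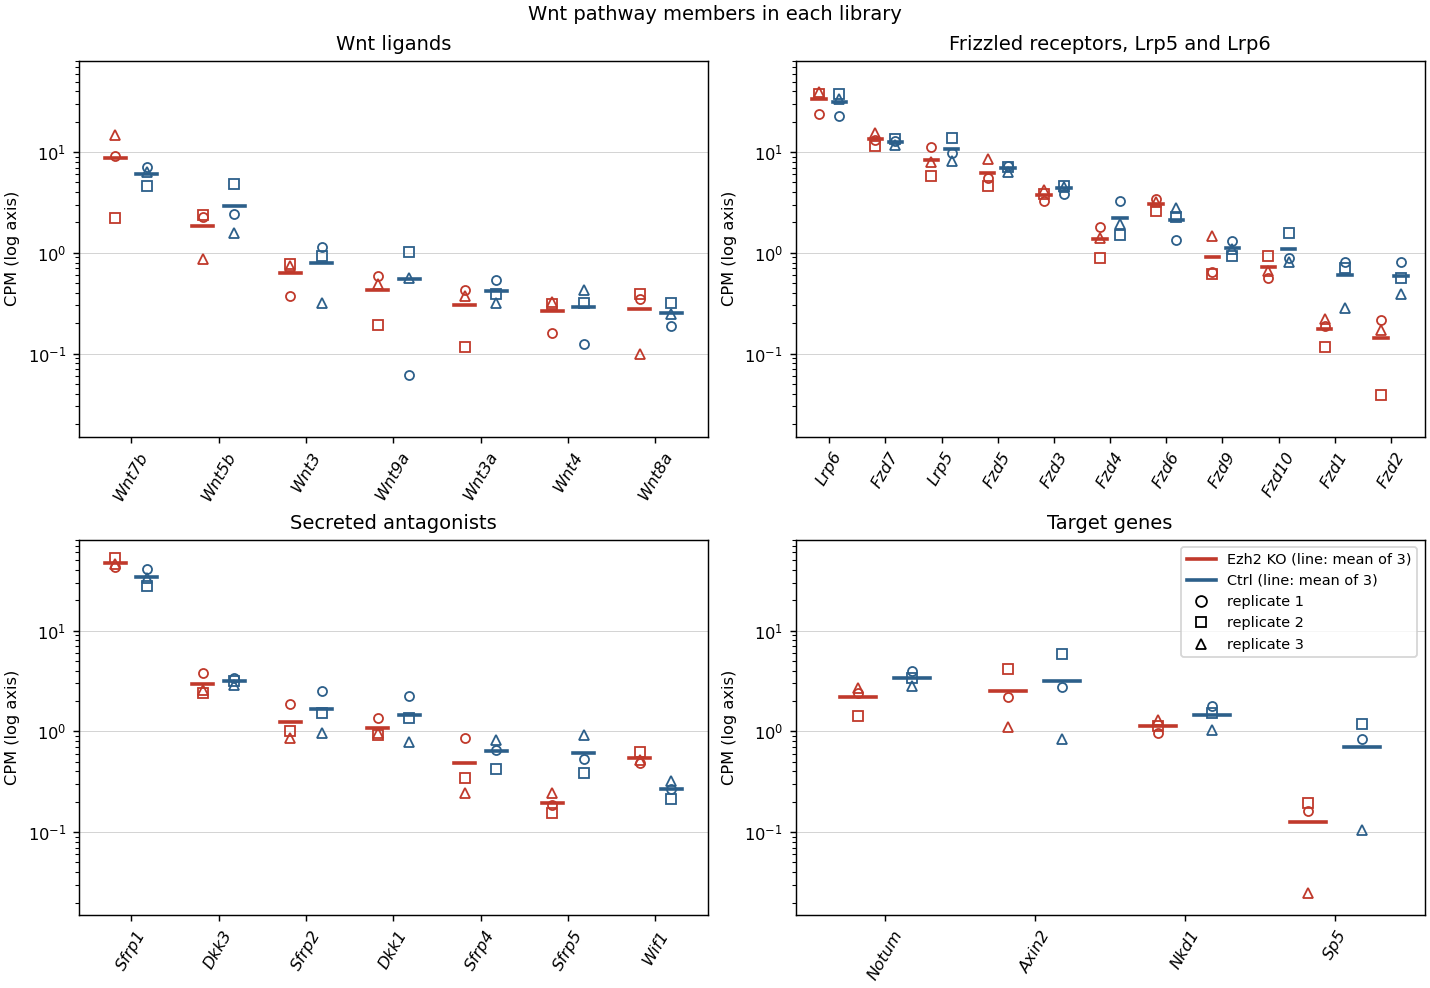
Levels of the 27 tested members and of Fzd1 and Sp5 in each library, in CPM on a log axis, with Ezh2 KO in red left of Ctrl in blue; symbols mark replicates 1 to 3 and short lines the mean of 3 libraries. Sfrp1, Lrp6, Fzd7 and Wnt7b head their panels or stand near the top in both groups, while Fzd1, Fzd2 and Sfrp5 show red symbols below all blue ones at levels under 1 CPM.

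Without a test, the libraries of the 2 groups can be set side by side for all 43 members. All 3 Ezh2 KO libraries lay below all 3 Ctrl libraries for 5 members (Fzd1, Fzd2, Sfrp5, Notum and Dkk2), or 11.6%, beside 3.56% of the 26974 genes with any count. Of these Dkk2 had no more than 3 counts in any library, so no difference can be read from it. They lay above for 2 members (Sfrp1 and Wif1), or 4.65%, beside 3.94% of those genes. Among the 39 members with over 3 counts in some library, 4 lay below (10.3%), beside 4.15% of the 21250 such genes, and 2 above (5.13%), beside 4.46%. The libraries of the other 36 members overlapped. With 3 libraries against 3, an exact two-sided permutation test cannot go below p = 0.1 for any single gene.

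Promoter windows were looked up for all members, since promoters of pathway genes are known targets of polycomb complexes and of TCF/LEF factors in other settings. RefSeq (GRCm38.p6) gave windows of 300 bases, 250 before and 50 after a start, for 29 of the 43 members, 32 windows in all. The ratio of observed to expected CpG had a median of 0.75 in the members' windows and of 0.38 in all 32851 windows. It was over 0.6 in 23 of the 32 member windows (71.9%), against 35.8% of all windows. The core TCF/LEF motif CTTTGAT was searched on both strands and lay in 3 member windows (9.38%), against 3.73% of all windows. These were the window of Sp5, 1 of the 3 of Wnt5b and that of Wnt11 at chr7:98834862-98835161. The other Wnt11 window, at chr7:98838595-98838894, holds neither this motif nor the variant below. The variant CTTTGAA lay in 1 member window (3.13%), that of Dkk1, against 5.14% of all windows. These matches are letters in a window, not sites of binding. The first 3 sequences below belong to members whose levels varied with the replicate number in both groups, printed 5′ to 3′ on the gene's strand in lower case, with the motif in capitals. Sp5 (chr2:70474673-70474972, plus strand) has it 104 bases before the start and Wnt5b (chr6:119449337-119449636, minus strand) 71 bases before, while the window of Axin2 (chr11:108920099-108920398, plus strand) holds neither motif.
Sp5: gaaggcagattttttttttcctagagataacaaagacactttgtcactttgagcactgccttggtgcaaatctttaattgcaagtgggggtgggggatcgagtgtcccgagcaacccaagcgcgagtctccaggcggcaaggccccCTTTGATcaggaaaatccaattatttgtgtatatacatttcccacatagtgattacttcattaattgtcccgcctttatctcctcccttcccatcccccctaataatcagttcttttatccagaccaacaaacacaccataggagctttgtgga
Wnt5b: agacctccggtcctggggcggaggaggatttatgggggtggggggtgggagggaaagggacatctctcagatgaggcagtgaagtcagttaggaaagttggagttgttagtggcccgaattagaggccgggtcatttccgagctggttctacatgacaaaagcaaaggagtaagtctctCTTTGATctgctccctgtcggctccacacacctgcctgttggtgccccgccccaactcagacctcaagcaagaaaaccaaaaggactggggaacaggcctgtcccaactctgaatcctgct
Axin2: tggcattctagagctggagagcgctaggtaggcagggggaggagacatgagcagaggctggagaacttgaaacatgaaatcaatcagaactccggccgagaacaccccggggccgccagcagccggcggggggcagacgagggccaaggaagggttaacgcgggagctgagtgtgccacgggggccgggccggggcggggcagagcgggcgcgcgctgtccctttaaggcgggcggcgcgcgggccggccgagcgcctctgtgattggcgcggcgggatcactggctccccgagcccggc

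The next 2 sequences belong to the receptor Fzd1 and the antagonist Sfrp5, whose libraries did not overlap between the groups. Here the capitals mark each CpG dinucleotide. Fzd1 (chr5:4758167-4758466, minus strand) has 16 of them and a ratio of 0.75, and Sfrp5 (chr19:42202203-42202502, minus strand) has 15 and a ratio of 0.62. Neither window holds either motif. Of the other members without overlap, Wif1, which was higher in Ezh2 KO, has a window with 25 CpG dinucleotides and a ratio of 0.85. Dkk2 has a window with 11 and a ratio of 0.50, while Fzd2, Notum and Sfrp1 had no window. A link between these windows and the levels was not tested.
Fzd1: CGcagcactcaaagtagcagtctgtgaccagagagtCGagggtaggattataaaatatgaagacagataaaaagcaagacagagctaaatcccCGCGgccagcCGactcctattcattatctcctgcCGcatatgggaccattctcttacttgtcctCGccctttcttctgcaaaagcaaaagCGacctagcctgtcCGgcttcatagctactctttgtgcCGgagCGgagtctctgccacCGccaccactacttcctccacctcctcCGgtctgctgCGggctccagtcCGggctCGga
Sfrp5: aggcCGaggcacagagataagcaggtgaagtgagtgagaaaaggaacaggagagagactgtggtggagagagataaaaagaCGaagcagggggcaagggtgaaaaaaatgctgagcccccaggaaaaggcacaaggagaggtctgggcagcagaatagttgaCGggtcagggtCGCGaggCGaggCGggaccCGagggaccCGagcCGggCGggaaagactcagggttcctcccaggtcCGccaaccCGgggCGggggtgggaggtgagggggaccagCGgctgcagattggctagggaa

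Of the 19 ligands, Wnt7b and Wnt5b carried most of the signal in both groups. Together they held 74.9%, 62.1% and 79.4% of the summed ligand CPM per kilobase of exon in Ezh2 KO replicates 1 to 3, against 68.4%, 66.5% and 70.7% in Ctrl. Wnt7b (ENSMUSG00000022382), a ligand known from placenta, lung and nerve development, stood at 9.07, 2.20 and 14.8 CPM in Ezh2 KO, against 7.15, 4.61 and 6.37 CPM in Ctrl. The Ezh2 KO libraries held both its lowest and its highest value, and the log2 fold change of 0.52 ± 0.58 (SE) was within the spread (edgeR, unadjusted p = 0.390). Wnt5b (ENSMUSG00000030170), a ligand mostly of beta-catenin-independent signalling, stood at 2.25, 2.39 and 0.865 CPM in Ezh2 KO, against 2.45, 4.83 and 1.56 CPM in Ctrl. It was lower in Ezh2 KO in each same-numbered pair, replicate 3 was the lowest of both groups, and the groups overlapped. Its log2 fold change was -0.69 ± 0.53 (SE; edgeR, unadjusted p = 0.233), and -0.65 ± 0.29 with the replicate number as a block (unadjusted p = 0.0508).

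The canonical ligands of the early embryo were detected at low levels, from 3 to 56 reads a library. Wnt3, the ligand that primes the epiblast, stood at 0.374, 0.772 and 0.741 CPM in Ezh2 KO, against 1.15, 0.922 and 0.318 CPM in Ctrl. Wnt3a, which maintains axial stem cells of the streak, stood at 0.428, 0.116 and 0.371 CPM in Ezh2 KO, against 0.536, 0.390 and 0.318 CPM in Ctrl. Wnt8a, a ligand of the early streak, stood at 0.348, 0.386 and 0.0988 CPM in Ezh2 KO, against 0.186, 0.319 and 0.248 CPM in Ctrl. All 3 overlapped between the groups, with log2 fold changes of -0.37 ± 0.54, -0.42 ± 0.53 and 0.13 ± 0.60 (SE). Wnt4, a ligand of gonad and kidney development, stood at 0.160, 0.309 and 0.321 CPM in Ezh2 KO, against 0.124, 0.319 and 0.425 CPM in Ctrl. Wnt9a, known from joint and cartilage development, stood at 0.588, 0.193 and 0.494 CPM in Ezh2 KO, against 0.0618, 1.03 and 0.566 CPM in Ctrl, and Ctrl replicates 1 and 2 were its lowest and highest values. The log2 fold changes of this last pair of genes were -0.09 ± 0.59 and -0.29 ± 0.84 (SE). The 7 tested ligands had a median log2 fold change of -0.29, with 2 positive and 5 negative, and this value moved to between -0.57 and 0.01 when single libraries were left out.

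The other 12 ligands did not pass the filter and had 0 to 12 counts in any library, with a highest level of 0.272 CPM. Wnt2b was the most counted of them, with 9, 4 and 11 counts in Ezh2 KO, against 12, 6 and 1 in Ctrl. Wnt1 had 1, 0 and 0 counts in Ezh2 KO, against 5, 4 and 0 in Ctrl. Wnt2 had 0, 2 and 0 counts in Ezh2 KO, against 3, 6 and 2 in Ctrl. These first 3 show how few reads stand behind the class: each has a library at or under 2 counts. Wnt5a, the main ligand of planar polarity, had 5, 3 and 0 counts in Ezh2 KO, against 8, 6 and 0 in Ctrl. Wnt6 had 7, 1 and 0 counts in Ezh2 KO, against 7, 6 and 2 in Ctrl. Wnt7a had 3, 0 and 8 counts in Ezh2 KO, against 12, 0 and 3 in Ctrl. All of these overlapped between the groups. Wnt8b had 0, 0 and 2 counts in Ezh2 KO, against 6, 0 and 0 in Ctrl. Wnt11 had 0, 4 and 6 counts in Ezh2 KO, against 3, 3 and 2 in Ctrl, and 8.80% of its exon bases overlap the antisense gene Gm8398. Wnt16 had 3, 3 and 4 counts in Ezh2 KO, against 6, 3 and 1 in Ctrl. Wnt9b, Wnt10a and Wnt10b had no more than 1 count in any library. A count of 0 allows up to 3 counts, which is 0.0741 to 0.116 CPM in Ezh2 KO libraries and 0.0618 to 0.106 CPM in Ctrl libraries. Only Wnt2b and Wnt16 had a count in every library. The size of difference detectable at this depth was not computed, and no difference is read from these 12 ligands.

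Among the Frizzled receptors, which bind ligands through a cysteine-rich outer domain, Fzd7 was the most abundant per kilobase in both groups. It held 52.7%, 53.2% and 50.0% of the summed Frizzled CPM per kilobase in Ezh2 KO replicates 1 to 3, against 45.5%, 46.9% and 45.7% in Ctrl, without overlap. Fzd7 (ENSMUSG00000041075) is known as the main Frizzled of embryonic stem cells, and its own level was 13.2, 11.6 and 15.5 CPM in Ezh2 KO, against 12.9, 13.3 and 11.7 CPM in Ctrl. The groups overlapped, and its log2 fold change was 0.09 ± 0.22 (SE), with a 95% interval of -0.42 to 0.59. The mean level per kilobase was 2.96 CPM in Ezh2 KO and 2.79 CPM in Ctrl for Fzd7. Next came Fzd5 with 0.900 CPM per kilobase in Ezh2 KO and 1.00 in Ctrl. Fzd6 had 0.636 CPM per kilobase in Ezh2 KO and 0.441 in Ctrl, and Fzd9 had 0.395 in Ezh2 KO and 0.482 in Ctrl, so that their order differed between the groups, though the libraries of both genes overlapped. Fzd3, Fzd10 and Fzd4 lay between 0.204 and 0.294 CPM per kilobase in Ezh2 KO and between 0.332 and 0.340 in Ctrl, an order within their spread in Ctrl. Fzd1, Fzd2 and Fzd8 were the lowest, at 0.0296 to 0.0417 CPM per kilobase in Ezh2 KO and 0.0372 to 0.160 in Ctrl.

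Fzd2 (ENSMUSG00000050288), a receptor for canonical and Wnt5a-type ligands, had the largest fold change of the tested members. It stood at 0.214, 0.0386 and 0.173 CPM in Ezh2 KO, against 0.804, 0.568 and 0.389 CPM in Ctrl, from 8, 1 and 7 reads in Ezh2 KO and 39, 16 and 11 reads in Ctrl. All 3 Ezh2 KO libraries lay below all 3 Ctrl libraries. The log2 fold change was -1.97 ± 0.59 (SE), with a 95% interval of -3.32 to -0.63, and did not pass over all genes (edgeR, unadjusted p = 0.00939, adjusted p = 0.976; with the replicate block, unadjusted p = 0.00511 and adjusted p = 0.466). It passed the filter through its Ctrl libraries, so that a difference in this direction was favoured. Its close relative Fzd1 (ENSMUSG00000044674) was below the filter and had the same pattern, with 7, 3 and 9 reads in Ezh2 KO, against 39, 20 and 8 reads in Ctrl. These made 0.187, 0.116 and 0.222 CPM in Ezh2 KO, against 0.804, 0.710 and 0.283 CPM in Ctrl, again without overlap. The fit without the filter gave Fzd1 a log2 fold change of -1.76 ± 0.59 (SE; edgeR, unadjusted p = 0.0104, adjusted p = 0.879).

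Fzd4, known as the norrin receptor of vessels, stood at 1.82, 0.888 and 1.41 CPM in Ezh2 KO, against 3.30, 1.49 and 1.91 CPM in Ctrl. The groups overlapped, but Fzd4 was lower in Ezh2 KO in each same-numbered pair, and its log2 fold change was -0.70 ± 0.43 (SE; edgeR, unadjusted p = 0.137). With the replicate block it was -0.68 ± 0.28 (unadjusted p = 0.0354), which makes 3 tested members lower at an unadjusted p under 0.05 in that fit (Fzd2, Sfrp5 and Fzd4), or 11.1%, beside 3.12% of all tested genes. In the same fit 0 members were higher, beside 5.98% of all tested genes. As Fzd2 and Sfrp5 passed the filter through Ctrl, which favoured such differences, nothing is read from these shares. Fzd6, a receptor of planar polarity, was the one Frizzled higher in each pair, at 3.40, 2.59 and 3.21 CPM in Ezh2 KO, against 1.34, 2.27 and 2.76 CPM in Ctrl. The groups overlapped, and its log2 fold change was 0.54 ± 0.35 (SE; edgeR, unadjusted p = 0.163).

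The other Frizzled genes overlapped between the groups. Fzd5, a receptor of the early yolk sac and placenta, stood at 5.56, 4.59 and 8.52 CPM in Ezh2 KO, against 7.28, 7.10 and 6.40 CPM in Ctrl. Fzd3, an axon guidance receptor, stood at 3.29, 3.82 and 4.17 CPM in Ezh2 KO, against 3.88, 4.65 and 4.53 CPM in Ctrl. Their log2 fold changes were -0.15 ± 0.29 for Fzd5 and -0.21 ± 0.26 for Fzd3 (SE). Fzd9 stood at 0.642, 0.618 and 1.46 CPM in Ezh2 KO, against 1.30, 0.922 and 1.10 CPM in Ctrl. Fzd10 stood at 0.562, 0.927 and 0.667 CPM in Ezh2 KO, against 0.887, 1.56 and 0.814 CPM in Ctrl, lower in each pair. Their log2 fold changes were -0.28 ± 0.44 for Fzd9 and -0.60 ± 0.42 for Fzd10 (SE). Fzd8 was below the filter with 3, 4 and 12 reads in Ezh2 KO, against 10, 8 and 5 in Ctrl.

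Lrp6 and Lrp5, the co-receptors that recruit Axin to the membrane, did not stand apart between the groups. Lrp6 (ENSMUSG00000030201) stood at 23.6, 38.0 and 39.5 CPM in Ezh2 KO, against 22.6, 37.4 and 33.8 CPM in Ctrl, with replicate 1 the lowest of both groups. Its log2 fold change was 0.11 ± 0.28 (SE), and its 95% interval of -0.53 to 0.75 covers changes in either direction. Lrp5 stood at 11.3, 5.83 and 7.95 CPM in Ezh2 KO, against 9.90, 13.9 and 8.21 CPM in Ctrl, with a log2 fold change of -0.35 ± 0.33 (SE). The 10 tested receptors and co-receptors had a median log2 fold change of -0.24, with 3 positive and 7 negative.

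**Figure D2:**
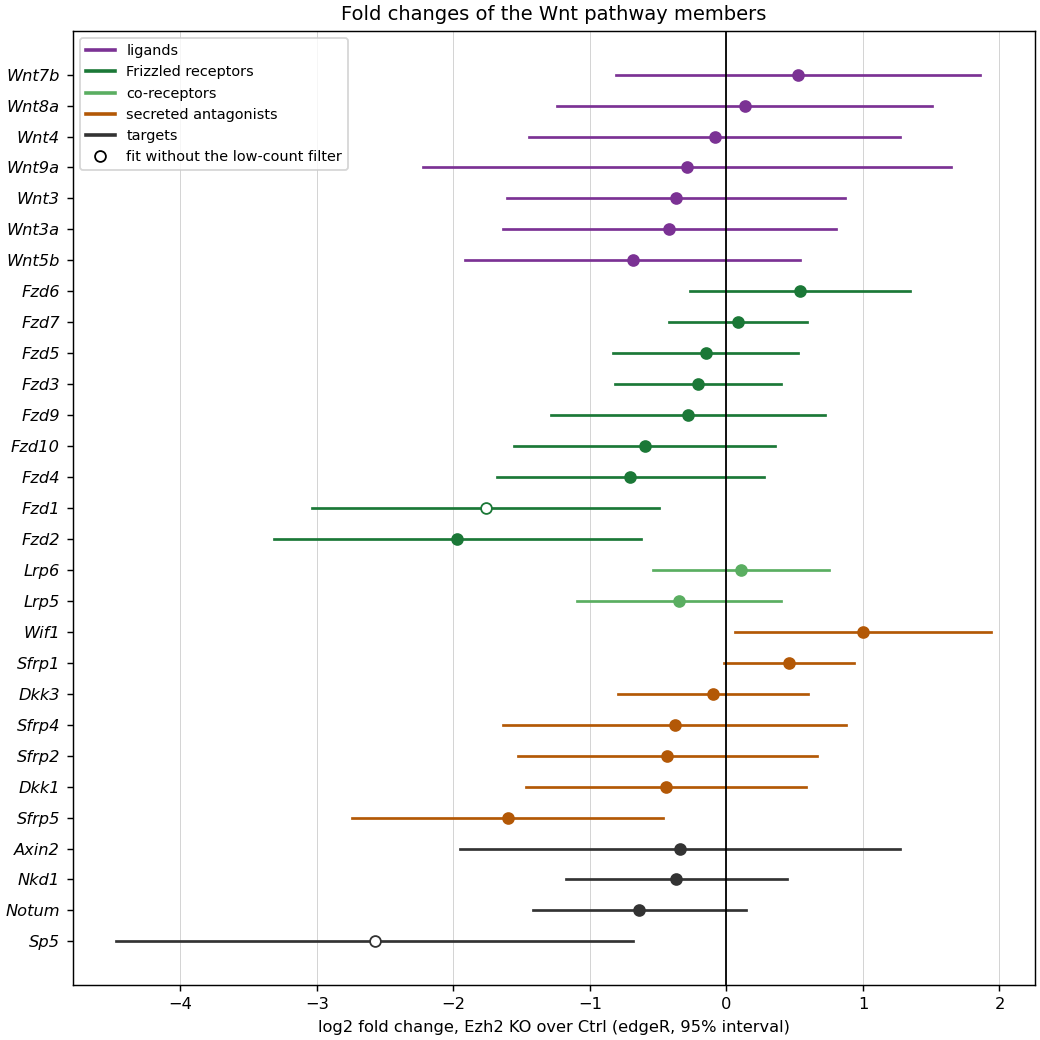
Log2 fold change of Ezh2 KO over Ctrl for the 27 tested members and for Fzd1 and Sp5, with 95% intervals from edgeR, grouped and coloured by role; open symbols come from the fit without the low-count filter. Points run from -1.97 for Fzd2 to 1.00 for Wif1 among the tested members, and most intervals cross the line at 0.

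The secreted antagonists held the most abundant member. Sfrp1 (ENSMUSG00000031548), a decoy that carries a Frizzled-like domain and binds Wnt ligands, stood at 42.7, 52.5 and 45.8 CPM in Ezh2 KO, against 41.3, 27.9 and 33.2 CPM in Ctrl. All 3 Ezh2 KO libraries lay above all 3 Ctrl libraries, though Ezh2 KO and Ctrl replicate 1 differ by little. The log2 fold change was 0.46 ± 0.21 (SE), with a 95% interval of -0.01 to 0.93 (edgeR, unadjusted p = 0.0561, adjusted p = 0.976). Per kilobase Sfrp1 averaged 10.7 CPM in Ezh2 KO and 7.81 CPM in Ctrl. It made up 76.1%, 85.8% and 84.1% of the summed antagonist CPM per kilobase in Ezh2 KO, against 72.0%, 70.8% and 75.5% in Ctrl.

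Wif1 (ENSMUSG00000020218), another secreted binder of Wnt ligands, also lay higher in all 3 Ezh2 KO libraries. It stood at 0.481, 0.618 and 0.519 CPM in Ezh2 KO, against 0.268, 0.213 and 0.318 CPM in Ctrl, from 16 to 21 reads in Ezh2 KO and 6 to 13 reads in Ctrl. The log2 fold change was 1.00 ± 0.41 (SE; edgeR, unadjusted p = 0.0392, adjusted p = 0.976). With the replicate block its unadjusted p was 0.0508. Sfrp5 (ENSMUSG00000018822), an Sfrp1 relative known from the anterior visceral endoderm and foregut, lay on the other side. It stood at 0.187, 0.154 and 0.247 CPM in Ezh2 KO, against 0.536, 0.390 and 0.920 CPM in Ctrl, from 7, 4 and 10 reads in Ezh2 KO and 26, 11 and 26 reads in Ctrl. The groups did not overlap, and its log2 fold change was -1.60 ± 0.50 (SE; edgeR, unadjusted p = 0.0115, adjusted p = 0.976). The ratio within same-numbered pairs was 0.349, 0.396 and 0.269, and the unadjusted p with the replicate block was 0.00551. Like Fzd2, Sfrp5 passed the filter through its Ctrl libraries. Sfrp5 is known from endoderm, whose markers are given above with Sox17 also lower without overlap, and the part of endoderm cells in this difference was not tested.

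The other antagonists overlapped between the groups. Dkk1, which blocks Lrp6, stood at 1.36, 0.927 and 0.963 CPM in Ezh2 KO, against 2.27, 1.35 and 0.778 CPM in Ctrl. Dkk3, a divergent relative of Dkk1, stood at 3.82, 2.39 and 2.59 CPM in Ezh2 KO, against 3.38, 3.16 and 2.90 CPM in Ctrl. Their log2 fold changes were -0.44 ± 0.45 for Dkk1 and -0.10 ± 0.30 for Dkk3 (SE). Sfrp2 stood at 1.87, 1.00 and 0.865 CPM in Ezh2 KO, against 2.54, 1.53 and 0.955 CPM in Ctrl, lower in each pair. Sfrp4 stood at 0.856, 0.347 and 0.247 CPM in Ezh2 KO, against 0.660, 0.426 and 0.814 CPM in Ctrl. Their log2 fold changes were -0.43 ± 0.48 for Sfrp2 and -0.38 ± 0.55 for Sfrp4 (SE). Dkk2 was not recorded in Ezh2 KO (0, 0 and 0 counts) and had 1, 3 and 3 counts in Ctrl, so both groups are at or under the limit of 3 counts and no fold is given. The 7 tested antagonists had a median log2 fold change of -0.38, with 2 positive and 5 negative. Without Ctrl replicate 1 that median was 0.01, and without Ezh2 KO replicate 3 it was -0.05.

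The 4 target genes carry feedback on the pathway. Axin2 (ENSMUSG00000000142), a scaffold of the destruction complex and the usual reporter of canonical signalling, stood at 2.19, 4.21 and 1.11 CPM in Ezh2 KO, against 2.74, 5.85 and 0.849 CPM in Ctrl. Replicate 2 was the highest and replicate 3 the lowest of both groups. Within pairs the ratio of Ezh2 KO to Ctrl was 0.800, 0.719 and 1.31, and the log2 fold change was -0.34 ± 0.70 (SE; edgeR, unadjusted p = 0.640). The antisense gene Gm11670 overlaps 3.80% of the exon bases of Axin2, and as the strand setting is not known its reads cannot be told apart. Without Ctrl replicate 2 the log2 fold change was 0.45, and without Ezh2 KO replicate 3 it was 0.02. With the replicate block its log2 fold change was -0.19 ± 0.28.

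Sp5 (ENSMUSG00000075304), a zinc-finger repressor that beta-catenin switches on and whose promoter window is printed above, was below the filter. It had 6, 5 and 1 reads in Ezh2 KO, against 41, 33 and 3 reads in Ctrl, or 0.160, 0.193 and 0.0247 CPM in Ezh2 KO and 0.845, 1.17 and 0.106 CPM in Ctrl. The ratio of Ezh2 KO to Ctrl was 0.190 in pair 1 and 0.165 in pair 2, while in pair 3 both libraries were at or under 3 counts. The groups overlapped because Ctrl replicate 3 lay below Ezh2 KO replicates 1 and 2. Without the filter the log2 fold change was -2.58 ± 0.86 (SE; edgeR, unadjusted p = 0.0122, adjusted p = 0.879). DESeq2 with the replicate block gave -2.44 (unadjusted p = 0.00405, adjusted p = 0.319).

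Notum (ENSMUSG00000042988), a secreted enzyme that removes the lipid of Wnt ligands, stood at 2.41, 1.43 and 2.69 CPM in Ezh2 KO, against 4.02, 3.37 and 2.79 CPM in Ctrl. The groups did not overlap, though replicates 3 of both groups lie close together. In CPM without TMM factors Ezh2 KO replicate 3 lay just above Ctrl replicate 3, so the groups overlapped and pair 3 went the other way. The log2 fold change was -0.64 ± 0.34 (SE; edgeR, unadjusted p = 0.0980, adjusted p = 0.976). Of its exon bases 29.4% overlap the antisense gene Notumos and 8.72% the antisense gene Myadml2os, and the use of strand in counting is not given in the sources used here, so reads of these genes cannot be told apart. Nkd1, a cytoplasmic inhibitor that binds Dishevelled, stood at 0.963, 1.12 and 1.28 CPM in Ezh2 KO, against 1.77, 1.53 and 1.03 CPM in Ctrl, overlapping, with a log2 fold change of -0.37 ± 0.35 (SE). All 3 tested targets had negative fold changes, with a median of -0.37.

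**Figure D3:**
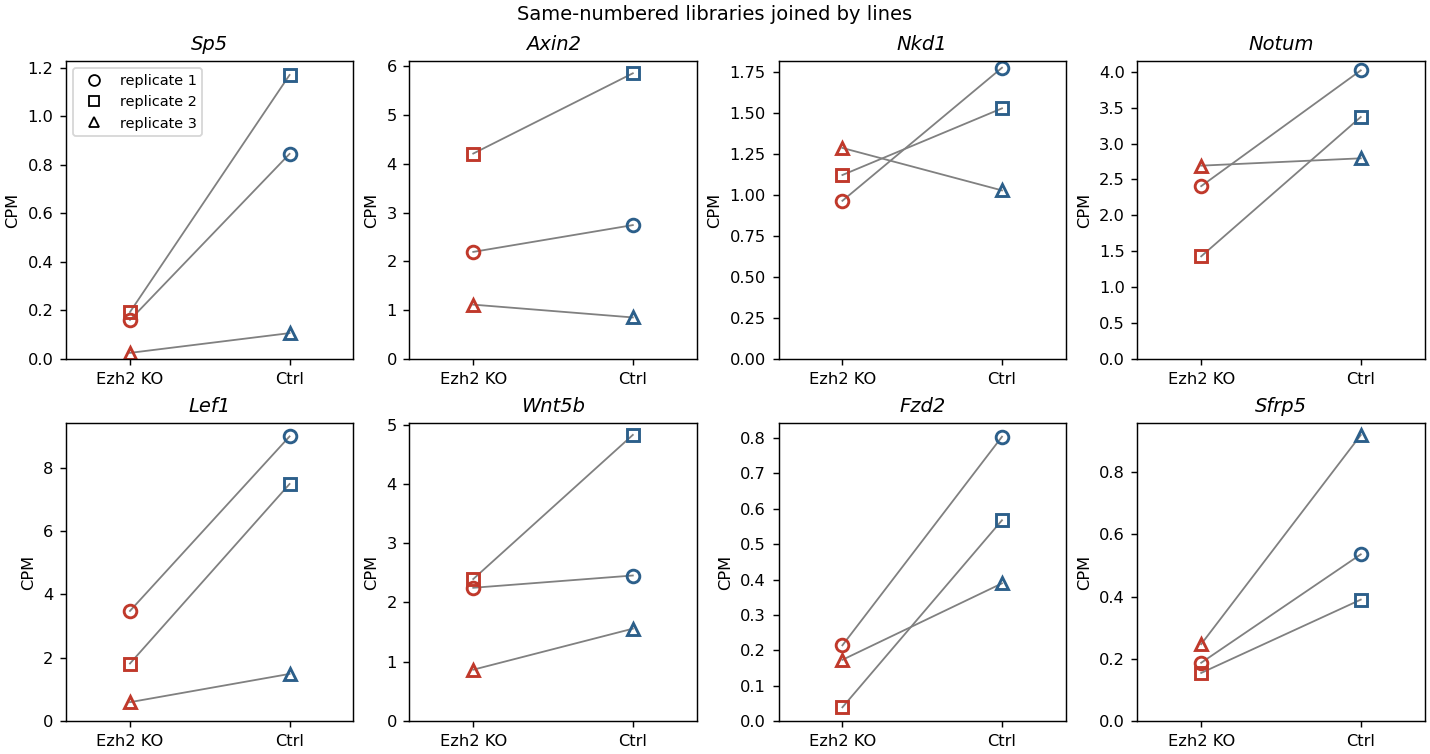
CPM of 8 genes in each library on linear axes from 0, Ezh2 KO left of Ctrl, with same-numbered replicates joined by lines and marked by their symbol. Sp5, Axin2, Lef1 and Wnt5b are low in replicate 3 of both groups, and Lef1, Wnt5b, Fzd2, Sfrp5 and Notum are lower in Ezh2 KO in each joined pair. Sp5 is lower in pairs 1 and 2, while in pair 3 both its libraries are at or under 3 counts.

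Same-numbered libraries varied together (the check stands in the section on processing), so the pairs were also read one by one. Of the 27 tested members, 8 were lower in Ezh2 KO in each pair (Wnt5b, Fzd2, Fzd3, Fzd4, Fzd10, Sfrp2, Sfrp5 and Notum) and 4 were higher in each pair (Fzd6, Lrp6, Sfrp1 and Wif1). The share of all tested genes that go the same way in each pair was not computed, so nothing is read from these counts. With the block edgeR still called 0 members and 0 of all tested genes, with a smallest adjusted p of 0.158 and 1495 genes at an unadjusted p under 0.05. DESeq2 with the block called 50 of the 17560 genes that received an adjusted p (0.285%), and 0 of them were members.

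A further 84 pathway genes outside the member list, in 7 roles, were read from the same fit. Of these 83 were found and 64 tested, 22 with positive and 42 with negative fold changes and a median of -0.15. With the GC offset the median was -0.08. edgeR called 0 of the 64. At an unadjusted p under 0.05 it had 2 higher (Gpc4 and Id2) and 2 lower (Porcn and Cdx2). Over all tested genes 1.55% were higher and 1.25% lower at that threshold. limma-voom called 0, with 5 at an unadjusted p under 0.05, beside 466 of the 16420 tested genes. DESeq2 called 0 of the 64, with 7 at an unadjusted p under 0.05, beside 737 among the 26974 genes with a count. That wider set also holds the genes below the edgeR filter, so it is not a like background. DESeq2 with the replicate block called 2 of the 64, Lef1 and Id2, beside 50 of the 17560 genes with an adjusted p (0.285%). The list was chosen with earlier results of these data known, so nothing is read from these counts.

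Lef1, a nuclear partner of beta-catenin that is itself a target of the pathway, stood at 3.48, 1.81 and 0.593 CPM in Ezh2 KO, against 8.99, 7.49 and 1.49 CPM in Ctrl. It was lower in Ezh2 KO in each pair, and replicate 3 was the lowest of both groups, as for Axin2 and Sp5. The log2 fold change was -1.61 ± 0.76 (SE; edgeR, unadjusted p = 0.0658, adjusted p = 0.976), and with the block edgeR gave an unadjusted p of 0.000215 and an adjusted p of 0.228. DESeq2 with the block gave -1.60 (adjusted p = 0.0029). Id2, an inhibitor of basic helix-loop-helix factors that responds to BMP as well as to beta-catenin, stood at 48.0, 58.0 and 42.2 CPM in Ezh2 KO, against 21.3, 30.8 and 22.4 CPM in Ctrl. All Ezh2 KO libraries lay above all Ctrl libraries, with a log2 fold change of 0.99 ± 0.22 (SE; edgeR, unadjusted p = 0.00209, adjusted p = 0.976). DESeq2 with the block gave 0.99 (adjusted p = 0.0070).

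In ligand secretion, Porcn, the enzyme that attaches the lipid to Wnt ligands, stood at 38.7, 18.9 and 35.4 CPM in Ezh2 KO, against 72.5, 61.1 and 41.9 CPM in Ctrl. The groups did not overlap, and the log2 fold change was -0.92 ± 0.32 (SE; edgeR, unadjusted p = 0.0197, adjusted p = 0.976). Wls, the carrier of lipid-modified ligands to the cell surface, stood at 4.36, 6.99 and 3.88 CPM in Ezh2 KO, against 5.61, 8.02 and 6.05 CPM in Ctrl, overlapping, with a log2 fold change of -0.37 ± 0.32 (SE).

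In the R-spondin, LGR and RNF43/ZNRF3 module, which sets the amount of Frizzled at the surface, 3 of 9 genes were tested and 0 reached an unadjusted p under 0.05 in edgeR. Its receptor Lgr4 stood at 31.5, 41.8 and 45.4 CPM in Ezh2 KO, against 29.8, 57.3 and 50.1 CPM in Ctrl. The ubiquitin ligase Znrf3 stood at 18.6, 23.5 and 25.2 CPM in Ezh2 KO, against 14.7, 40.0 and 26.2 CPM in Ctrl. Both overlapped between the groups.

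All 11 other receptors and cofactors were tested, with 3 positive and 8 negative fold changes. Gpc4, a heparan sulphate proteoglycan that holds ligands at the surface, stood at 95.8, 63.4 and 84.9 CPM in Ezh2 KO, against 53.9, 50.5 and 59.8 CPM in Ctrl. The groups did not overlap, and its log2 fold change was 0.57 ± 0.19 (SE; edgeR, unadjusted p = 0.0181, adjusted p = 0.976). Tpbg, a membrane inhibitor of the canonical branch, stood at 3.32, 2.36 and 3.95 CPM in Ezh2 KO, against 8.02, 3.94 and 4.10 CPM in Ctrl, with a log2 fold change of -0.74 ± 0.38 (SE).

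Among the 12 other secreted antagonists 5 were tested, 2 with positive and 3 with negative fold changes. Dkkl1, a Dkk relative of the testis, stood at 8.96, 9.23 and 7.88 CPM in Ezh2 KO, against 5.01, 5.29 and 7.50 CPM in Ctrl, without overlap, with a log2 fold change of 0.55 ± 0.26 (SE). Igfbp4, which can bind Lrp6, stood at 1.98, 1.58 and 1.83 CPM in Ezh2 KO, against 3.90, 3.80 and 1.31 CPM in Ctrl. Cer1, a BMP, Nodal and Wnt antagonist, was at 0 in all 6 libraries.

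The 18 signal transducers and components of the destruction complex were all tested, with 6 positive and 12 negative fold changes and a median of -0.11. Nkd2, the relative of Nkd1, stood at 3.40, 0.849 and 1.38 CPM in Ezh2 KO, against 5.22, 2.73 and 4.74 CPM in Ctrl, with a log2 fold change of -1.16 ± 0.52 (SE; edgeR, unadjusted p = 0.0571; with the replicate block, unadjusted p = 0.00194 and adjusted p = 0.391). The groups overlapped, but Nkd2 was lower in Ezh2 KO in each pair. Apc2, a relative of the scaffold Apc, stood at 0.455, 0.154 and 0.148 CPM in Ezh2 KO, against 0.722, 0.355 and 0.389 CPM in Ctrl.

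The 14 nuclear effectors found were all tested, with 5 positive and 9 negative fold changes and a median of -0.15. Beside Lef1, Hdac1, a histone deacetylase of Groucho corepressor complexes, had the smallest p, at 653, 527 and 571 CPM in Ezh2 KO, against 715, 646 and 784 CPM in Ctrl, with a log2 fold change of -0.29 ± 0.14 (SE). Among the 17 other targets 11 were tested, 5 positive and 6 negative. Cdx2, a homeobox gene of the posterior embryo and the trophoblast, stood at 0.508, 0.270 and 0.346 CPM in Ezh2 KO, against 0.639, 0.922 and 0.991 CPM in Ctrl, without overlap. Its log2 fold change was -1.15 ± 0.42 (SE; edgeR, unadjusted p = 0.0247, adjusted p = 0.976). Fgf20 was at 0 in all 6 libraries.

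**Figure D4:**
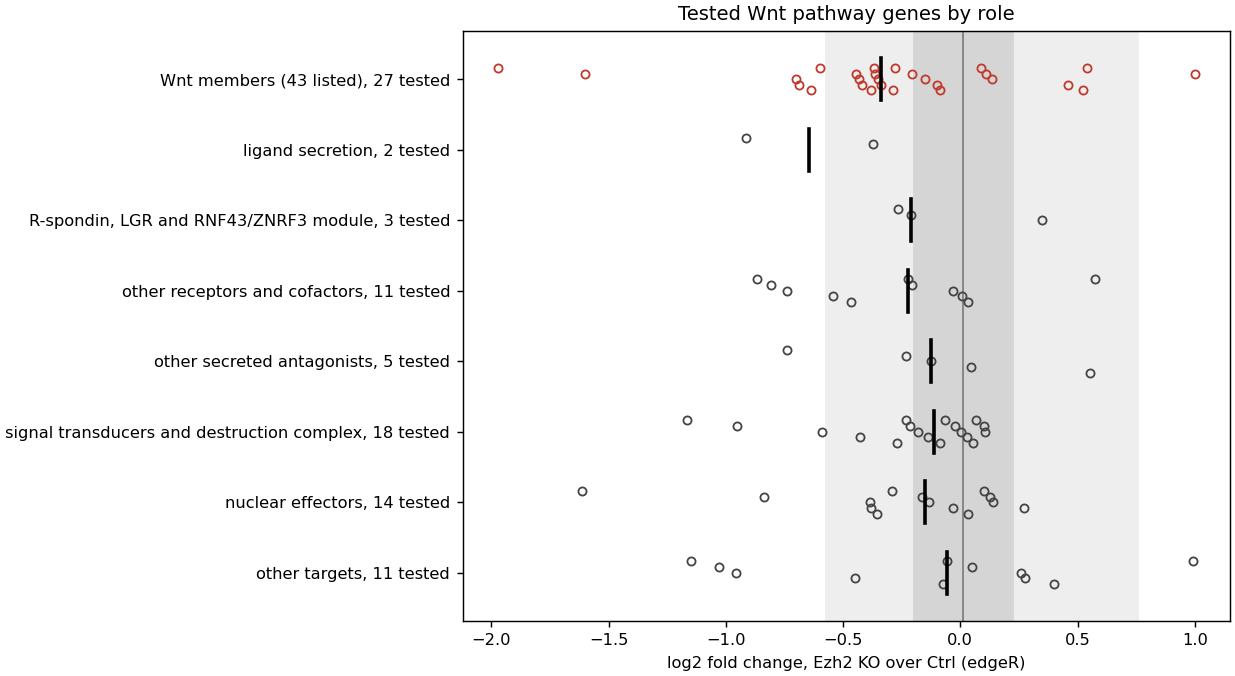
Log2 fold changes of Ezh2 KO over Ctrl for the tested Wnt members (top, red) and the other tested pathway genes by role, with a vertical tick at the median of each row; grey bands span percentiles 5 to 95 and 25 to 75 of all tested genes. The members' median lies at -0.34, beside 0.01 for all tested genes.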

How the data were processed

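RNA-seq of 3 Ezh2 KO and 3 Ctrl libraries was analysed, with groups and replicate numbers from the labels. Raw counts per Ensembl gene, as whole numbers without normalization, are what the authors deposited, in 1 table. Per the submitters' processing notes, the tools were featureCounts, TopHat2 2.0.11, Trimmomatic 0.33 and CASAVA 1.8.4, and the builds NCBIM37 and mm9. The strand setting, the annotation version and the sorting gate were not given in the sources used here. Whether replicates are separate inductions is not labelled, and p-values then reflect only how these samples spread, which may be technical.

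GENCODE M21 gave symbols, exon lengths and the GC content of transcripts by gene ID (32919 IDs matched, 5072 did not), which belongs to another build, so no coordinates of counted genes are printed; promoter windows are RefSeq's on GRCm38.p6. Genes kept by filterByExpr (16420; 21571 were not tested) were scaled by TMM and tested with the robust quasi-likelihood F-test of edgeR 4.0.16 (R 4.3.3), with no term but group, two-sided, and p-values were adjusted by Benjamini-Hochberg over all tested genes (threshold 0.05). The standard error comes from the F statistic and intervals cover 95%. CPM per kilobase is CPM over the exon union of a gene. The scripts were tested on simulated data. The limit of 3 counts covers counting error only.

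The members, the 84 further pathway genes and the marker lists were chosen with earlier results of these data known. Every member is accounted for, with values per library for those tested or with at least 5 counts in some library; Dkk2, below this, was named after its values were seen. Per role, the 2 tested pathway genes of smallest unadjusted p are named, with Cer1 and Fgf20 for their counts of 0. The markers Dnmt3b, Otx2, Fgf5, Sox4, Sox17, Gata4, Gata6, Apoa1, Neurog1, Lhx2, Pax6, Tubb3 and Nes were named after their values were seen. One listed pathway gene (Tle5) and 1 marker (Sox1) were not matched.

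The labels number replicates 1 to 3 in both groups. Each library's deviations from its group mean correlated at 0.583, 0.368 and 0.192 between same-numbered libraries over all tested genes. As each was over 0.1, the numbers were taken to pair the samples, although Ezh2 KO replicate 2 and Ctrl replicate 3 also correlated at 0.297 and pair 1 reached 0.0853 over the members alone. Alternatives were DESeq2 size factors in edgeR, DESeq2 1.42.0 without and with the replicate block, limma-voom (limma 3.58.1), no filter, CPM of at least 1 in 3 libraries, the replicate block in edgeR, a threshold of 0.1, each library left out in turn, and removal of 2 libraries. Added after seeing the data were the GC offset (loess per library, span 0.5, with the curve taken from genes whose mean log2 CPM exceeded 2) without and with the block, the split of tested genes by a GC content of 55%, and the values of Fzd1 and Sp5 outside the filter, and the count of members without overlap among those over 3 counts in some library.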

Additional observations from a re-analysis of the deposited data

How the results depend on the processing

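No alternative called a member. Over all tested genes edgeR called 0, DESeq2 called 5 and DESeq2 with the replicate block called 50, of which 2 were other pathway genes and 1 the marker Neurog1; the replicate block changed no call of a member. The median log2 fold change of the ligands, -0.29 in the reported fit, was -0.0792 with the replicate block in edgeR, -0.0589 with DESeq2 and the block, -0.0505 with limma-voom, -0.0771 among genes with CPM of at least 1 in 3 libraries and 0.0570 with the GC offset and the replicate block. Leaving out single libraries moved it between -0.57 and 0.00547, that of the antagonists between -0.65 and 0.0104, and that of the targets between -0.78 and -0.27. Without Ezh2 KO replicate 2 and Ctrl replicate 1, the extremes of the first principal component, the antagonists' median was 0.13. The cause of these moves was not tested.

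Of 416 recomputed fold changes of single members, 383 kept their direction and side of the threshold, 33 reversed in 14 members and 0 newly passed; 13 of the 27 tested members never reversed. Wnt9a turned to 0.0586 with DESeq2 and the replicate block, 0.41 with limma-voom, 0.0146 with the replicate block in edgeR and 0.17 with the GC offset and the block. Wnt4 turned to 0.0432 with limma-voom, 0.0445 with the GC offset and 0.0570 with the offset and the block, Wnt8a to -0.0505 with limma-voom, and Fzd9 to 0.00731 with the GC offset. Without both libraries, Wnt3a turned to 0.17, Wnt8a to -0.36, Fzd5 to 0.0704, Fzd9 to 0.0724, Lrp6 to -0.16, Dkk1 to 0.13, Dkk3 to 0.0834 and Sfrp2 to 0.13. With single libraries left out, the range crossed 0 for Wnt3 (-0.76 to 0.0114), Wnt4 (-0.18 to 0.27), Wnt7b (-0.10 to 0.99), Wnt8a (-0.15 to 0.34), Wnt9a (-0.87 to 0.56), Fzd5 (-0.45 to 0.0391), Fzd7 (-0.0294 to 0.19), Lrp6 (-0.0817 to 0.31), Dkk1 (-0.76 to 0.0314), Dkk3 (-0.34 to 0.0340), Sfrp2 (-0.86 to 0.0104) and Axin2 (-0.93 to 0.45). The number of members without overlap between the groups was 7 with TMM, 6 with plain CPM, where Notum overlapped, 7 with DESeq2 size factors and 6 among members over 3 counts in some library. Depth limits the 16 untested members, most of which had under 10 counts in most libraries.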
